A study of Mus musculus with 2 samples.

Results

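Mir143 and Mir145a are neighbouring microRNA (miRNA) genes known as smooth muscle markers, though both are also known from the embryonic heart. They are 2 of 1973 miRNA genes counted in the hearts of mouse embryos, and both were chosen by name, through their Ensembl identifiers, without use of their values. The libraries come from a microRNA-seq assay of short RNA made from total RNA of whole hearts. The hearts were taken at embryonic day 16.5 (E16.5) from healthy B6NCrl embryos, with males and females pooled. There is 1 group with 2 biological replicates, each a pool of hearts, and replicate 2 combined 41 embryos. No treatment, mutant or other age stands beside this group, so the values below describe what the E16.5 heart held and how far the replicates differed.

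In mammals the Mir143 and Mir145a hairpins are cut from a shared primary transcript. The cluster is known as a target of serum response factor and its partner myocardin, the regulators that switch on contractile genes in smooth muscle. In the mouse, both miRNAs are known from the embryonic heart and later mainly from smooth muscle of vessels and viscera. miR-145 is known to repress Klf4 and Klf5, factors linked to the dividing, less contractile state of smooth muscle cells. Mice that lack the cluster are known for thin arterial walls with fewer contractile cells. Each gene gives a hairpin with a 5′ and a 3′ arm, and the gene counts used here do not separate the arms.

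Both genes lie on the minus strand of chromosome 18 in the build mm10. Mir143 (ENSMUSG00000065445) spans 61649196 to 61649258, a hairpin of 63 bases. Mir145a (ENSMUSG00000065592) spans 61647825 to 61647894, a hairpin of 70 bases. Transcribed from the minus strand, Mir143 comes first and Mir145a follows after a gap of 1301 bases. These positions are those of GENCODE M21. The counted tables carry an earlier version of both identifiers, so the intervals in which reads were counted may differ from them.

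The setting of the cluster depends on the annotation. In GENCODE M21, Carmn, a long noncoding RNA known from the commitment of cells to the cardiac lineage, spans 61649625 to 61665537 on the minus strand and ends 366 bases before Mir143. In RefSeq for GRCm38.p6, the same assembly, Carmn spans 61645878 to 61665538 and holds both hairpins. Bvht (Braveheart), a long noncoding RNA known in mouse cardiovascular differentiation, lies beyond Mir145a on the plus strand in GENCODE M21, from 61639542 to 61647472, with a gap of 352 bases. In neither annotation does Bvht overlap a hairpin. No other counted miRNA gene lies within 10 kb of either hairpin.

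**Figure D1:**
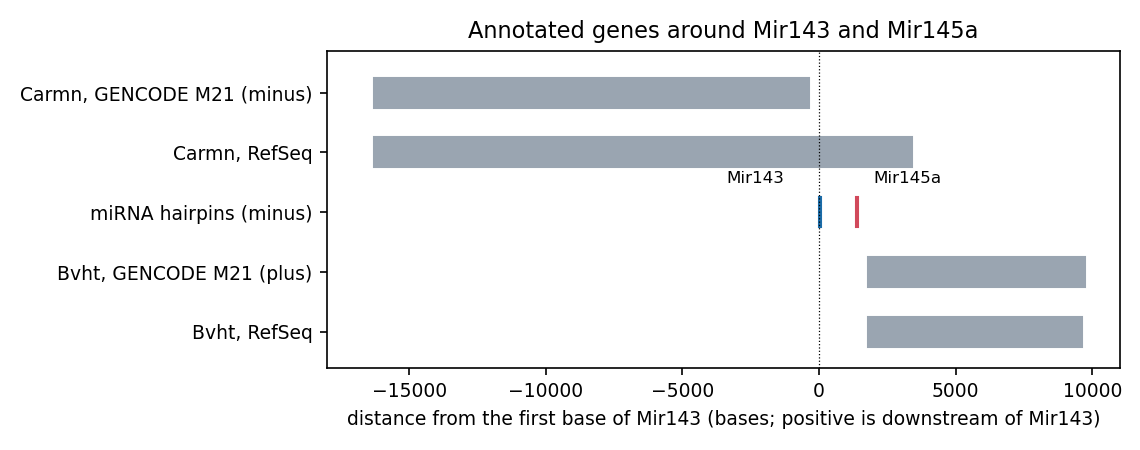
Annotated genes around the cluster, by distance in bases from the first base of Mir143, with downstream to the right. The GENCODE M21 version of Carmn stops 366 bases before Mir143, while the RefSeq version runs over both hairpins, and Bvht lies beyond Mir145a without reaching it.

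The libraries held 6473482 sense counts at miRNA genes in replicate 1 and 5841568 in replicate 2. Reads matching several places in the genome went to no gene and made up 29.5% of reads in replicate 1 and 31.9% in replicate 2. A gene was called detected with at least 10 sense counts in each library, which held for 365 genes. Levels are counts per 1000000 sense counts (CPM), given as mean ± SD over the libraries with n = 2 unless stated otherwise. The sources name no molecular identifiers, and all intervals and floors take in counting error alone.

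Mir143 was the most abundant of the counted miRNA genes in both libraries. It had 622599 sense counts in replicate 1 and 564698 in replicate 2, which is 96177 and 96669 CPM. Its level was 96423 ± 348 CPM, or 9.64% ± 0.035 of sense counts. The Wilson 95% interval of that share ran from 9.595% to 9.6404% in replicate 1 and from 9.643% to 9.691% in replicate 2, without overlap. Of all reads in the library, counted or not, Mir143 held 4.09% in replicate 1 and 4.38% in replicate 2.

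The second gene of the cluster stood far lower. Mir145a had 7507 sense counts in replicate 1 and 8276 in replicate 2, which is 1160 and 1417 CPM. Its level was 1288 ± 182 CPM, or 0.129% ± 0.018 of sense counts, with Wilson 95% intervals of 0.113% to 0.119% and of 0.139% to 0.145%. These intervals do not overlap either, so for both genes the share of sense counts differed between the libraries by more than counting error. Such a difference was common. By the binomial test described below, with no minimum fold, 169 of the 365 detected genes (46.3%) differed between the libraries. Mir145a took rank 78 in replicate 1 and rank 69 in replicate 2, and rank 75 by mean level. The median detected gene stood at 108 CPM, and 290 of the 365 detected genes lay below Mir145a.

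Reads at both genes came almost wholly from the annotated strand. Mir143 had 0 opposite-strand counts in either library, which allows up to 0.463 CPM in replicate 1 and 0.514 CPM in replicate 2. Mir145a had 0 in replicate 1 and 1 in replicate 2. This was the usual state, as 333 of the 365 detected genes had no opposite-strand count in either library.

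Neither hairpin shared a run of 20 bases with another annotated miRNA hairpin. The longest run that Mir143 shared with any other was 11 bases. Mir145a shared 17 bases with Mir145b, a separate gene at 69022199 to 69022273 on the same chromosome, named here after its values were seen. Mir145b had 0 counts in replicate 1 and 1 in replicate 2, so almost no read was assigned to it. Of the detected genes, 91 (24.9%) did share a run of 20 bases with another hairpin. For 10 of them every such hairpin overlaps the gene itself, and for the other 81 (22.2%) any reads matching several places are missing from their counts. The level of Mir143 relative to such genes is therefore its level among counted reads. Reads matching several places outnumbered Mir143 counts 7.20-fold in replicate 1 and 7.27-fold in replicate 2, and the order of genes with those reads assigned is not known.

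The hairpins also differed in predicted folding energy, which was not scaled by length. The predicted folding energy of the Mir143 hairpin was -36.9 kcal/mol at 55.6% G and C, beside a median of -36.7 kcal/mol and 50.6% over detected genes. Mir145a folded at -30.3 kcal/mol with 48.6% G and C. By this measure 180 detected hairpins were more stable than Mir143 and 278 were more stable than Mir145a, although the detected hairpins were longer, with a median of 84 bases.

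**Figure D2:**
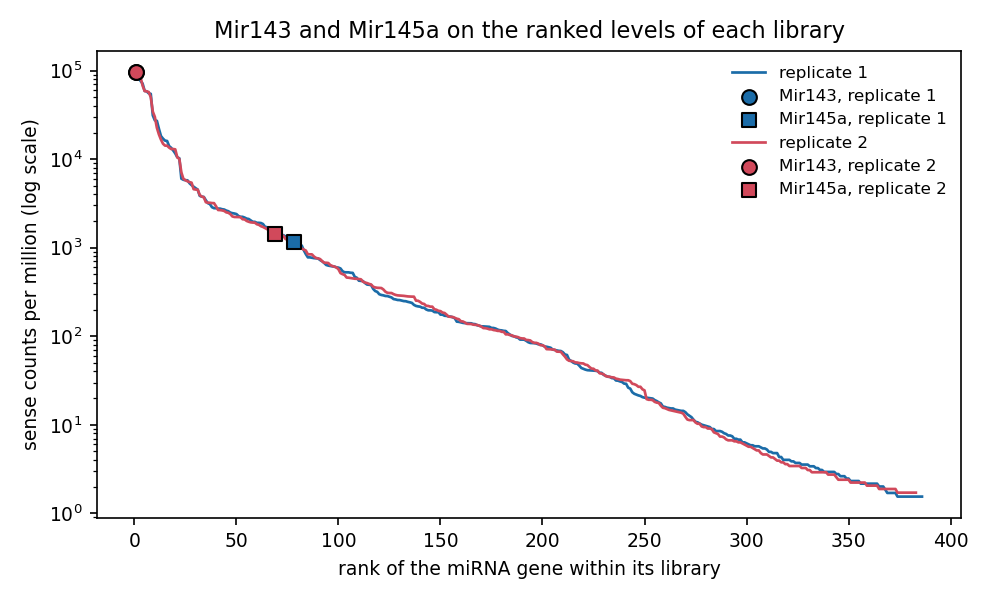
Sense CPM of every gene with at least 10 counts, on a log axis, against its rank within its library, with Mir143 as circles and Mir145a as squares. Mir143 heads both curves at rank 1, and Mir145a sits at ranks 78 and 69.

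The level of Mir143 was separated from those of the genes next to it in order. Mir126a, the endothelial miRNA of the Egfl7 locus, came second by mean level, with 85876 CPM in replicate 1 and 84222 CPM in replicate 2. The single hairpin that shares 20 bases with Mir126a, Mir126b, overlaps it at the same place in the genome. Mir143 exceeded Mir126a 1.12-fold in replicate 1 (exact Clopper-Pearson 95% interval 1.116 to 1.124) and 1.15-fold in replicate 2 (1.143 to 1.152). Mir335, which lies in the imprinted gene Mest, came next by mean level, with 71481 CPM in replicate 1 and 93666 CPM in replicate 2, where it stood above Mir126a. Mir143 was 1.35-fold above Mir335 in replicate 1 and only 1.03-fold above it in replicate 2, with an exact interval of 1.028 to 1.036. No detected gene had a range over the libraries that overlapped that of Mir143.

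Mir145a had no such separation from its neighbours. The genes next above it by mean level were Mir28a, at 1331 and 1258 CPM, and Mir27b, at 1403 and 1373 CPM. Next below were Mir382, at 1334 and 1229 CPM, and Mir101b, at 1172 and 1210 CPM, each with replicate 1 first. All 4 had ranges that overlapped that of Mir145a, as did 11 detected genes in all, from rank 67 to rank 78. Mir145a was lower than Mir28a by the ratio of counts in replicate 1 (0.872, exact interval 0.845 to 0.899) and higher in replicate 2 (1.13, 1.09 to 1.16), so their order changed between libraries.

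Lists of marker genes for other cell types were set beside Mir143, and it stood above the highest counted gene of each. The lists cover epithelial, neural, liver and blood cells as well as heart muscle and endothelium. The heart muscle list does not hold the copies of miR-1 and miR-133, which share long runs and can lose reads matching several places. The place of Mir143 above the heart muscle list is therefore one among counted reads. Mir208b, which lies in the beta myosin gene Myh7 and marks heart muscle, had 59090 CPM in replicate 1 and 57432 CPM in replicate 2, and Mir143 exceeded it 1.63-fold and 1.68-fold. The ratio of Mir143 over the erythroid Mir451a was 58.0 in replicate 1 and 70.9 in replicate 2. It was 241 and 239 over the leukocyte Mir223, and 602 and 599 over the hepatocyte Mir122. The epithelial Mir429 had 2132 CPM in replicate 1 and 1506 CPM in replicate 2, 45.1-fold and 64.2-fold below Mir143. In bulk tissue, more cells of a type and more RNA per cell cannot be told apart.

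The place of Mir145a among the same markers was different. Mir145a was 51.0-fold below Mir208b in replicate 1 and 40.5-fold below it in replicate 2. It was 2.90-fold and 3.50-fold above Mir223 and 7.25-fold and 8.79-fold above Mir122. Against Mir451a it stood lower in replicate 1 (ratio 0.699) and close to equal in replicate 2 (ratio 1.04). Against Mir429 the ratios were 0.544 and 0.941.

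By marker list, the 2 smooth muscle genes together held 9.73% of sense counts in replicate 1 and 9.81% in replicate 2. The endothelial marker Mir126a held 8.59% and 8.42%, and the heart muscle list (Mir208a, Mir208b and Mir499) 6.77% and 6.71%. The lists of 5 epithelial genes (0.462% and 0.323%), 3 erythroid genes (0.212% and 0.180%) and 2 counted leukocyte genes (0.0563% and 0.0685%) were far lower. The leukocyte list names 3 genes, but Mir142 is not among the counted genes under that name. The leukocyte share therefore leaves Mir142 out. The neural list was not detected, with 0 of 5 counted genes at 10 counts in both libraries, and with Mir124a-3 and Mir9-2 at 0 in both. Its highest gene, Mir9-3, had 16 counts in replicate 1 and 1 in replicate 2. All 5 share 20 bases with another hairpin and can lose reads that match several places, so these low counts do not show that neural miRNAs were absent. With 2 libraries no permutation test of such an order can pass a threshold of 0.05. The share of Mir143 and Mir145a together lay above every other list in both libraries, among counted reads. Of this share 98.7% was Mir143, since Mir145a made up 1.32% ± 0.18 of the pair, so the order mostly repeats the rank of Mir143. The lists differ in length and were chosen with earlier results of these data known. Both genes are also known from the embryonic heart, so their share is not a measure of smooth muscle cells.

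**Figure D3:**
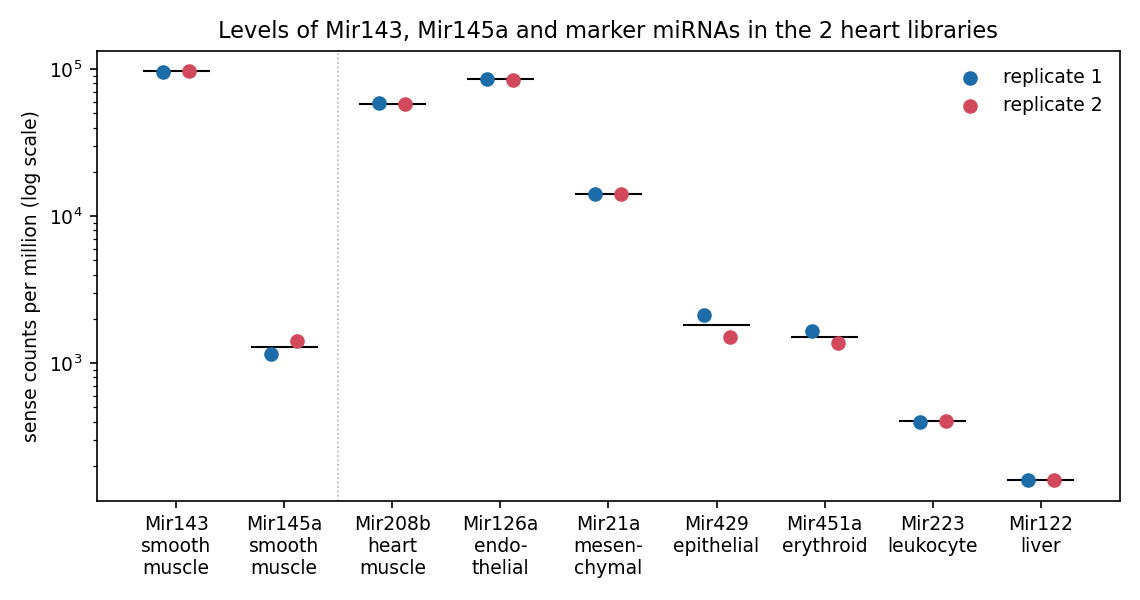
Sense CPM of Mir143, Mir145a and the highest gene of each marker list with a detected gene, on a log axis. Each gene has 1 point per library and a bar at the mean of n = 2. Mir21a, also shown, leads the mesenchymal list described below, and the neural list, which was not detected, is left out. Mir143 stands above Mir126a and Mir208b, while Mir145a lies near Mir429 and Mir451a.

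The cluster was then set beside other miRNAs of connective and vessel wall cells. The mesenchymal list held 11 genes, all counted and 9 detected, and took 2.79% of sense counts in replicate 1 and 2.73% in replicate 2. The median of its detected genes was 253 CPM, beside 108 CPM over all detected genes. Mir143 alone held more than the whole list in both libraries. Mir21a, known to rise in activated fibroblasts, led the list at 14148 ± 117 CPM, and Mir143 was 6.84-fold and 6.79-fold above it. Mir145a was below Mir21a 12.1-fold and 10.04-fold. Mir22, abundant in heart and skeletal muscle, stood at 10299.9 ± 321 CPM and Mir214, transcribed from the Dnm3 locus, at 2232 ± 318 CPM. With Mir22 second in the list, its share is not a measure of connective or vessel wall cells.

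Of the 11 counted genes of that list, 6 share 20 bases with a hairpin at another place, which Mir143 and Mir145a do not. These are the 3 miR-199 genes, Mir29b-1, Mir29b-2 and Mir29c. Mir152, at 131 ± 16.8 CPM, and Mir29a share no such run. The mature miRNAs below, from RefSeq for GRCm38.p6, are shown to make the copies visible, with the seed (bases 2 to 8 from the 5′ end) in capitals. All 11 list genes had an entry. miR-199a-3p comes from both Mir199a-1 and Mir199a-2 and has the same letters as miR-199b-3p. miR-29b-3p comes from both Mir29b-1 and Mir29b-2.
miR-21a-5p: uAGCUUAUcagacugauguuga
miR-22-3p: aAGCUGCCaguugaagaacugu
miR-214-3p: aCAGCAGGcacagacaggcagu
miR-199a-3p: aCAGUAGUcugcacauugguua
miR-199b-3p: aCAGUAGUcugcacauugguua
miR-29a-3p: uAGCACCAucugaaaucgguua
miR-29b-3p: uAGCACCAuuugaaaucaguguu
miR-29c-3p: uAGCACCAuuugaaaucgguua
A read of a miR-199 3′ arm matches 3 genes and could not be counted by a rule that drops reads matching several places. Among counted reads, Mir199b stood at 413 ± 41.5 CPM, Mir199a-2 at 40.7 ± 0.54 CPM and Mir199a-1 at 6 and 17 counts. Mir29a stood at 253 ± 46.6 CPM, Mir29c at 64.6 ± 3.31 CPM, Mir29b-1 at 23 and 14 counts and Mir29b-2 at 8 and 7 counts. The margin of Mir143 and Mir145a over the 6 genes with shared runs is therefore a margin among counted reads.

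A second list held 15 genes known for their effect on smooth muscle growth or contraction, of which 13 were counted and 12 detected. The median of its detected genes was 84.1 CPM, below the 108 CPM of all detected genes. Mir145a exceeded 11 of the 13 counted genes by mean level, all except Mir21a and Mir10a. Mir10a, a miRNA of the HoxB cluster, had 3778 CPM in replicate 1 and 2098 CPM in replicate 2. Mir24-2 stood at 348 ± 6.66 CPM, Mir31 at 138 ± 3.32 CPM and Mir146 at 93.1 ± 17.0 CPM. Mir221 and Mir222, known to favour smooth muscle growth, stood at 84.2 ± 21.2 CPM and 34.1 ± 0.87 CPM. The copies of miR-1 and miR-133 had 0 to 19 counts, but share long runs with each other. Of the 13 counted genes of this list, 7 share 20 bases with another hairpin, Mir24-2 and Mir146 among them, beside 24.9% of detected genes. The median of this list and its order against Mir145a therefore hold among counted reads.

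Within the cluster, the gene transcribed first gave many more reads than the second. Mir143 exceeded Mir145a 82.9-fold in replicate 1, with an exact Clopper-Pearson 95% interval of 81.1 to 84.9. The excess was 68.2-fold in replicate 2, with an interval of 66.8 to 69.7. The log2 ratio was 6.23 ± 0.20. Whether the hairpins are cut, kept or read with equal efficiency was not tested, so the ratio is one of read counts. The libraries differed in this ratio by 0.28 on the log2 scale (replicate 1 minus replicate 2), with an adjusted p of 8.64e-33 by Fisher's exact test with Benjamini-Hochberg adjustment over 96 pairs.

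To see how unequal neighbouring miRNA genes usually were, all pairs of adjacent hairpins on the same strand, at most 10 kb apart and both detected, were compared. There were 96 such pairs from 145 genes, and pairs of the same cluster share genes. The median pair differed 9.33-fold in either direction, beside 75.2-fold for Mir143 and Mir145a. The first-transcribed gene was the higher in 52 pairs and the lower in 44. Mir143 and Mir145a ranked 13 of 96 by the size of the ratio. Of the 12 pairs with a larger ratio, 9 held a hairpin that shared 20 bases with another.

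The most unequal pairs were Mir20a and Mir19b-1 (1077-fold), Mir99a and Mirlet7c-1 (546-fold) and Mir19b-1 and Mir92-1 (408-fold), all with shared sequence. Nearest in size to Mir143 and Mir145a were Mir542 and Mir450-2 (79.4-fold), Mir341 and Mir1188 (70.6-fold) and Mir369 and Mir410 (80.6-fold). Among the 56 pairs in which neither hairpin shared 20 bases with another, Mir143 and Mir145a ranked 4, behind Mir19a and Mir20a, Mir18 and Mir19a, and Mir369 and Mir410. The median of those 56 pairs was 6.87-fold.

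The lower gene of this pair was itself well counted. In 15 pairs both genes had at least 1000 CPM in each library, a limit chosen after the values were seen. Among these, Mir143 and Mir145a were the most unequal pair. Mir322 and Mir503 of the X chromosome followed at 39.6-fold, and Mir503 and Mir351 at 13.7-fold. This limit leaves out pairs whose lower gene is rare, and a ratio within it cannot exceed the level of the highest gene over the limit.

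**Figure D4:**
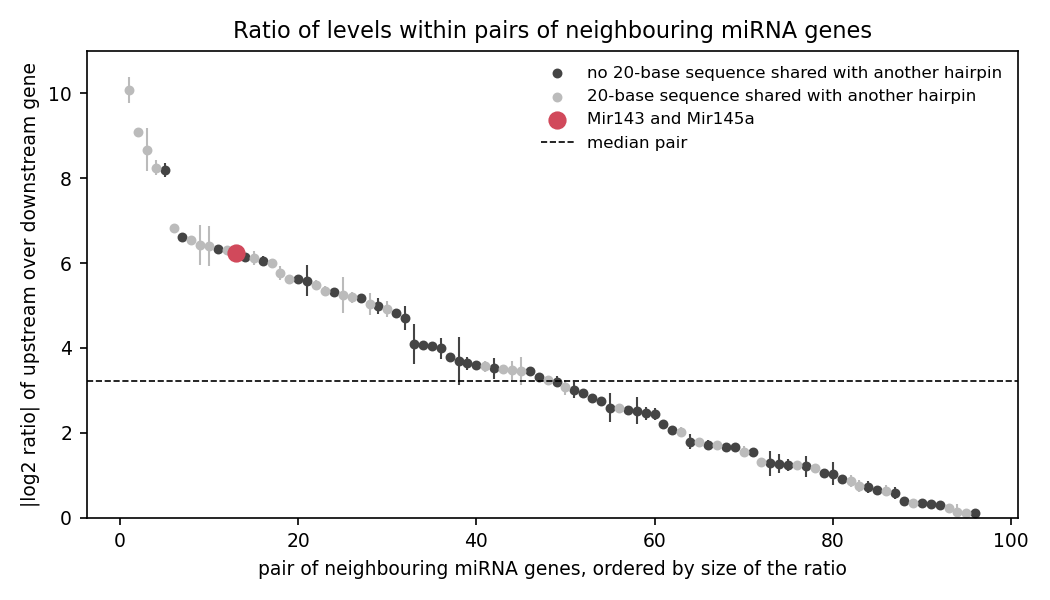
Absolute log2 ratio of 96 pairs of neighbouring miRNA genes, ordered by size, with points at the mean of n = 2 libraries and lines joining the library values. Mir143 and Mir145a, at 6.23, rank 13 and lie well above the dashed median of 3.22.

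Each detected gene was then tested for a difference between replicates by an exact, two-sided binomial test of its counts, with library sizes scaled by edgeR's TMM method and Benjamini-Hochberg adjustment over the 365 genes. A call required an adjusted p under 0.05 and a difference of at least 2-fold, and 12 genes (3.29%) passed. This test compares these libraries, has no replicate on either side, and its p-values rest on counting error.

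Neither Mir143 nor Mir145a was called. Mir143 was nearly equal in the libraries, with a log2 ratio of replicate 1 over replicate 2 of -0.033 (1.02-fold, adjusted p = 2.61e-34 by the exact binomial test). With scaling by total counts its log2 ratio was -0.0074, with an adjusted p of 0.0135 by the same exact test. Mir145a was lower in replicate 1, with a log2 ratio of -0.31 (1.24-fold, adjusted p = 1.09e-41). The median log2 ratio of all detected genes was -0.018 and the median size was 0.21. Without the minimum fold both genes passed the test, as did 169 of 365 genes (46.3%), with 95 (26.0%) lower in replicate 1, as these were, and 74 (20.3%) higher.

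The spread of Mir143 between the pools was among the smallest of the well counted genes. Of the 82 genes with a mean of at least 1000 CPM, 14 had a smaller log2 ratio in size than Mir143 and 71 a smaller one than Mir145a. By SD of CPM relative to the mean, 2 of these genes varied less than Mir143 and 67 less than Mir145a. The log2 ratios were TMM-scaled and the CPM were not. With 2 libraries both measures describe the same difference, so the place of Mir143 depends on the scaling. The SD was 0.361% of the mean for Mir143 and 14.1% for Mir145a, beside a median of 6.29% over these genes. Counting error alone gives 0.127% and 0.133% in the libraries for Mir143, and 1.15% and 1.10% for Mir145a.

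The shift of the Mir143 over Mir145a ratio was a common size for neighbouring genes. By Fisher's exact test with adjustment over the pairs, 43 of the 96 pairs (44.8%) differed between the libraries. In 36 pairs the ratio moved further than in this one, and in 59 it moved less, with a median shift of 0.21 on the log2 scale.

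Among genes with a mean of at least 1000 CPM, those with a library ratio nearest to that of Mir143 were Mir30a (-0.032), Mir369 (-0.035) and Mir499 (-0.036), on the log2 scale. Mir499 is the heart muscle miRNA of Myh7b. Nearest to Mir145a were Mir181d (-0.30), Mirlet7b (-0.33) and Mir484 (-0.28). Likeness here is the difference of 1 log2 ratio between 2 libraries, which is a weak measure of likeness. No gene of either connective tissue or smooth muscle list was called, where 3.29% of all genes tested were. Without the minimum fold, where 46.3% of all genes tested passed (20.3% higher and 26.0% lower in replicate 1), the mesenchymal list had 2 genes higher and 4 lower in replicate 1, with 3 not past the test, and the smooth muscle list 1 higher, 4 lower and 7 not past it.

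**Figure D5:**
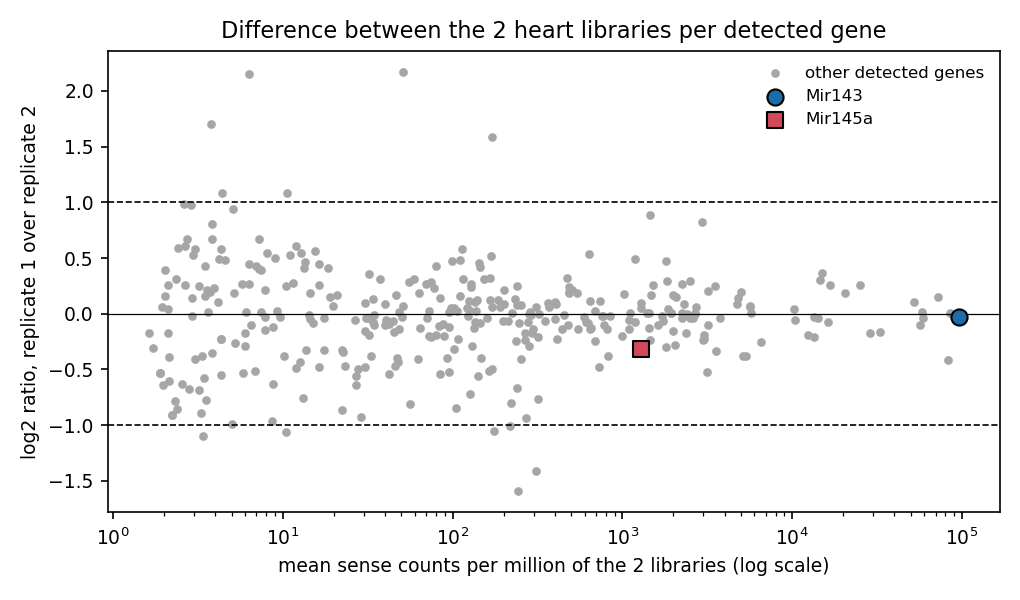
Log2 ratio of replicate 1 over replicate 2 against mean sense CPM (log axis) for 365 detected genes, with dashed lines at a 2-fold difference. Mir143 lies at -0.033 at the far right and Mir145a at -0.31, both inside the lines.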

How the data were processed

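The measured quantity was reads per miRNA gene in 2 libraries of 1 group. The deposited values are raw counts, made by the authors on build mm10 with annotation M4, per the lists of files deposited with the libraries. Which aligner, counter or trimming was used is not given in the sources used here. A table has 3 count columns (either strand, and each strand alone), and 4 lines that name no gene, which stayed out of gene totals. They hold unmapped reads (22.4% in replicate 1 and 17.2% in replicate 2), reads matching several places (29.5% and 31.9%), unassigned reads (2.99% and 2.66%) and 0 ambiguous reads. Column 3 was taken as sense, and its gene total is larger in both libraries. Counts per 1000000 sense counts (CPM) were computed from it.

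Genes were matched to GENCODE M21 by identifier without version (1894 of 1973, and 365 of 365 detected). TMM scaling used edgeR 4.0.16 in R 4.3.3. Log2 ratios between libraries had 0.5 added to each count. The binomial test was checked on simulated counts of 356 detected genes, where 93.9% of genes made 2.5-fold lower in replicate 1, 93.5% of those made 2.5-fold higher and 0 of 172 unchanged genes were called. The simulated counts of unchanged genes held counting error alone, so this check says nothing on other differences between libraries. Folding energies came from ViennaRNA 2.7.2, intervals from scipy 1.17.1 and Python 3.11.15. Whether the replicates share animals is not stated beyond the label of biological replicates. edgeR's quasi-likelihood test was not used, because the single group has no contrast.

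The genes, lists and comparisons were chosen with earlier results of these data known. Named genes were the cluster, genes within 10 kb, the 2 next above and below each by level, the 3 nearest by library ratio, the 3 most unequal and 3 nearest pairs, the 5 highest of both lists and the highest of each marker list. The alternatives tried were size factors of DESeq2 1.42.0, scaling by total counts, other count filters, no minimum fold, the unstranded column, other denominators, other pair limits and leaving out each replicate.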

Additional observations from a re-analysis of the deposited data

How the results depend on the processing

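The order within the cluster kept its direction with the unstranded column and with each replicate left out. Denominators and library scalings cancel in a ratio within a library, so they could not change it. No paired analysis was possible because there is a single group. Leaving out each replicate gave 96177 to 96669 CPM for Mir143, 1160 to 1417 CPM for Mir145a, 9.73% to 9.81% for both, a log2 ratio of 6.09 to 6.37 and a pair rank of 9 to 14. Levels followed their denominator. With the unstranded column Mir143 stood at 90733 CPM and the pair at 9.19%. Per 1000000 of all reads, Mir143 stood at 42382, Mir145a at 568 and the pair at 4.29%. Without Mir126a in the total, Mir143 stood at 105386 CPM and the pair at 10.7%. With all reads matching several places added to the total, a step chosen after seeing the data, Mir143 stood at 56797 CPM, Mir145a at 759 CPM and the pair at 5.76%. Without the minimum fold the log2 ratios of replicate 1 over replicate 2 (-0.033 for Mir143, -0.31 for Mir145a) passed the test, and 169 genes were called in place of 12. Over the other scalings, filters and columns the log2 ratio was -0.035 to -0.0074 for Mir143 and -0.32 to -0.29 for Mir145a. With no count filter 21 of 725 genes were called, and with at least 100 counts 5 of 256. The pair ranked 9 of 77 with at least 100 counts, 4 of 56 without shared sequence, 4 of 60 where only hairpins at other places count as shared, and 1 of 15 with both genes at 1000 CPM or more, the last 2 chosen after seeing the data. Neighbours within 1 kb gave no value, as the gap is 1301 bases. With 2 libraries, no difference between pools of hearts can be told from a difference between library preparations.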
